A study of Sus scrofa with 3 samples.

Results

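The genes described here encode the MCM helicase and other parts of the DNA replication machinery. The list held 10 genes, MCM2, MCM3, MCM4, MCM5, MCM6, MCM7, PCNA, RRM1, RRM2 and TYMS, which were looked up on the array by gene name or by a description of the probe. A usable probe was found for 4 of them, MCM3, MCM5, MCM6 and PCNA, out of 5541 genes with a symbol. MCM2, MCM4, MCM7, RRM1, RRM2 and TYMS were not analysed here. PIE cells, a non-transformed line derived from the intestinal epithelium of an unsuckled neonatal pig, were measured on 1-colour arrays after 12 h with pathogen-associated molecular patterns (PAMPs) of enterotoxigenic Escherichia coli (ETEC). The TL2937+ETEC cells had first been kept for 48 h with Lactobacillus jensenii TL2937, the TL2766+ETEC cells for 48 h with Lactobacillus plantarum TL2766, and the ETEC cells in control medium. Cells without PAMPs, which the design also names, were not analysed here. All cells had been grown for 3 days beforehand. Each group had 1 culture and 1 array, and every culture received the PAMPs, so an effect of the lactobacilli alone and an altered response to the PAMPs cannot be told apart. With no replicates, no difference below has a p-value, and array position and treatment cannot be told apart either.

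The proteins MCM2 to MCM7 form a ring of 6 related subunits. The ring is loaded onto replication origins in G1 phase with the help of the origin recognition complex, CDC6 and CDT1, and becomes the motor of the replicative helicase when CDC45 and the GINS proteins join it in S phase. PCNA is the sliding clamp that holds DNA polymerases on their template. Ribonucleotide reductase (RRM1 and RRM2) and thymidylate synthase (TYMS) make deoxynucleotides. In dividing cells the genes of these proteins are transcribed around the G1/S transition, largely under E2F transcription factors. In the intestinal epithelium they mark the dividing cells of the crypt.

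Each measured gene rested on 1 probe of 60 bases with 1 spot per array. MCM3 and PCNA were named on the array itself. MCM5 and MCM6 were named by descriptions of the consensus transcripts TC574510 and TC522111, which the array design calls similar to bovine MCM5 and human MCM6. The array annotation lists all 4 probes as unmapped, so no genome position is given. A probe described as similar to a bacterial thymidylate synthetase was not taken as TYMS. Its log2 differences against ETEC were -0.059 with TL2937 and -0.36 with TL2766. The probe sequences of MCM6, whose identity rests on a description, and of PCNA, whose identity rests on a pig mRNA record, are given 5′ to 3′ as in the array files, with no letters singled out:
MCM6 probe: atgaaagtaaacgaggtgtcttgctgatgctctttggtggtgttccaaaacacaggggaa
PCNA probe: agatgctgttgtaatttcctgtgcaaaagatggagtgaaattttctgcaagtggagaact

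The cells were checked against marker genes of several cell types. Of 8 epithelial markers with a probe, the scanner software flagged 4 as well above background with TL2937, 4 with TL2766 and 5 in ETEC cells. EPCAM, KRT18 and CLDN4 were not well above background on any array. KRT8 had scaled intensities of at most 23.9, where the lowest detected probes of the arrays lay at 11.6 to 12.9. The summed level of the epithelial markers was 109 to 122 over the arrays. All 5 endothelial markers were well above background on the TL2937+ETEC and ETEC arrays, with PECAM1 at 84015, 85368 and 86718 and CDH5 at 56573, 55877 and 60391 on the TL2937+ETEC, TL2766+ETEC and ETEC arrays. Their summed level was 143820, 144201 and 149004. VWF was dim, at 15.5, 13.8 and 22.7 in the same order of arrays, and was not well above background with TL2766. The endothelial receptor genes TEK (2419, 2189 and 1340) and KDR (798, 753 and 532) had the same order of arrays as the replication genes below. PECAM1, CDH5 and VWF did not, and were highest on the ETEC array. The mesenchymal markers, led by FN1, were all well above background, with sums of 287147, 299757 and 324173. FN1 (242859 to 267697) and ACTA2 (41874 to 53731) made up most of these sums, and DES lay at 2181 to 2531. COL1A2, PDGFRB, DCN and THY1 were dim, at 28.5 to 82.9. The monocyte gene CD14 was also well above background (723, 741 and 623). Other leukocyte genes were dim. CD3E, CD4 and CD8A were each well above background on some arrays, at no more than 21.9, and PTPRC on none of the 3 arrays. The marker levels therefore did not match the epithelial label, and the line is called PIE below without a cell type. A part of these cell types in the replication genes was not tested.

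All 4 genes had their highest signal with TL2937, a middle one with TL2766 and the lowest in ETEC cells. Levels are given as scaled intensities, that is the processed intensity brought to the same 75th percentile on each array, with the scanner software's error for the spot. MCM3, a subunit of the helicase ring, had a scaled intensity of 388 ± 38.9 with TL2937 and 316 ± 31.8 with TL2766, against 258 ± 26.0 in ETEC cells. MCM5, another subunit of the ring, had 1396 ± 139.6 with TL2937 and 1198 ± 119.9 with TL2766, against 940 ± 94.0 in ETEC cells. MCM6, a further subunit, had 476 ± 47.7 with TL2937 and 414 ± 41.5 with TL2766, against 370 ± 37.1 in ETEC cells. For these 3 helicase genes the error ranges of the TL2937+ETEC and ETEC spots did not meet. PCNA had 524 ± 52.4 with TL2937 and 478 ± 47.8 with TL2766, against 442 ± 44.3 in ETEC cells, and its 3 error ranges overlapped. In log2 units the error of each of these spots was 0.144 to 0.146. Whether the ranges met thus restates the size of the fold, for PCNA as for the helicase genes. It covers no variation between cultures. The order TL2937+ETEC, TL2766+ETEC, ETEC from high to low was also seen in 586 of the 4211 genes well above background on all arrays, or 13.9%.

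**Figure D1:**
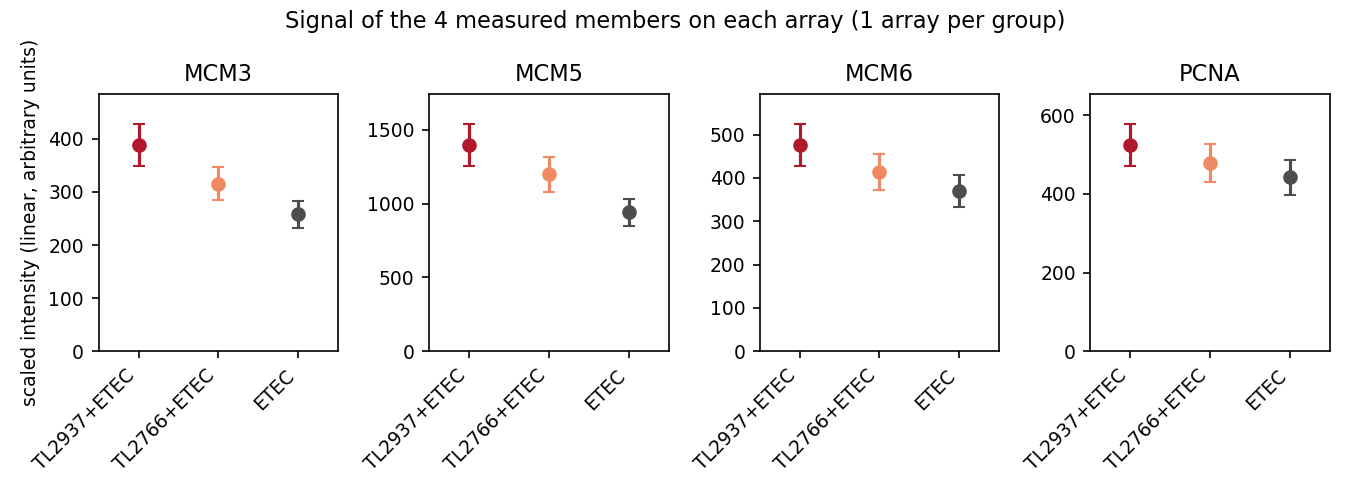
Scaled intensity (linear, arbitrary units) of MCM3, MCM5, MCM6 and PCNA on the TL2937+ETEC, TL2766+ETEC and ETEC arrays, 1 point per array. Bars show the scanner software's error of 1 spot, and each panel falls from left to right, in MCM3 through 388, 316 and 258.

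Setting TL2937+ETEC cells against ETEC cells compares expression after the PAMPs with and without pretreatment by L. jensenii TL2937. The helicase genes were 1.29- to 1.51-fold higher in the TL2937+ETEC cells, and PCNA was 1.19-fold higher. Log2 differences were 0.59 ± 0.21 for MCM3, 0.57 ± 0.20 for MCM5, 0.36 ± 0.20 for MCM6 and 0.25 ± 0.20 for PCNA, where the error combines the 2 spots and covers no variation between cultures. Probes with 5 spots gave a median standard deviation of this log2 difference of 0.11 over 25 probes, and of 0.39 for the most variable probe. The median over the 4 genes was 0.47, against -0.042 over the 4258 genes well above background on both arrays. At least 1.2-fold higher were 3 of the 4 genes, against 7.26% of all genes, and 0 were lower by as much, against 12.5%. At least 1.5-fold higher was 1 gene, MCM3, against 1.17% of all genes. MCM3 lay under 1.5-fold with median scaling (0.58), cyclic loess (0.58), quantile scaling (0.57) and normexp correction (0.46), and MCM5 passed it with quantile (0.60) and spike-in scaling (0.64). Of all genes, 48 had a larger difference than MCM3 and 56 a larger one than MCM5, while 342 exceeded PCNA. No member reached 2-fold.

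The same comparison was made for L. plantarum TL2766 by setting its cells against the ETEC cells. The 4 genes were again on the higher side, by less. MCM5 was 1.28-fold higher, with a log2 difference of 0.35 ± 0.20, and MCM3 1.23-fold, with 0.29 ± 0.21. MCM6 (0.16 ± 0.20) and PCNA (0.11 ± 0.20) differed by less than the error of their spots. The median was 0.23, against -0.0010 over 4235 genes. At least 1.2-fold higher were 2 of the 4, against 8.05% of all genes, and 0 were lower by as much, against 8.88%. The median standard deviation over probes with 5 spots was 0.078 and the highest 0.70. Both comparisons use the same ETEC array, so its error enters both sets of values.

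Between the lactobacilli, the signals were higher with TL2937 in all 4 genes, and the differences were small. MCM3 differed by 0.30 ± 0.20, MCM5 by 0.22 ± 0.20, MCM6 by 0.20 ± 0.20 and PCNA by 0.13 ± 0.20 (TL2937+ETEC minus TL2766+ETEC, log2). The values of MCM6 and PCNA were no larger than the error of their spots. At least 1.2-fold higher was 1 of the 4, MCM3, against 4.29% of all genes, and 0 were lower by as much, against 7.28%. The median was 0.21, against -0.044 over 4270 genes.

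**Figure D2:**
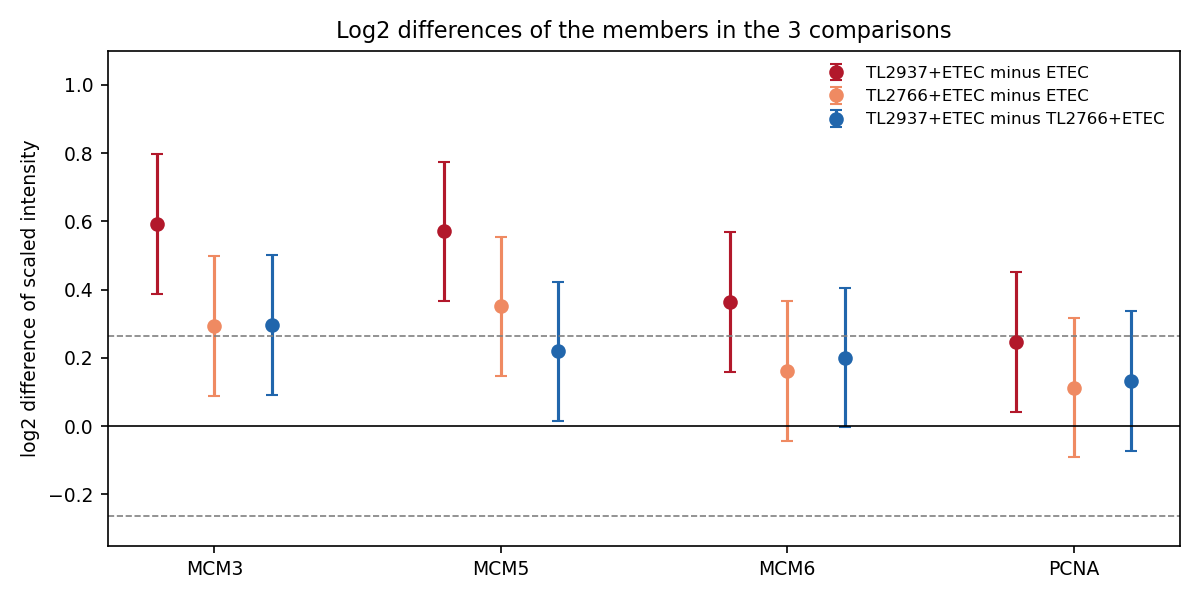
Log2 difference of scaled intensity for each gene in the 3 comparisons, with the combined scanner error of the 2 spots as bars. Dashed lines mark 1.2-fold in either direction. Every point lies above 0, from 0.11 for PCNA (TL2766+ETEC minus ETEC) to 0.59 for MCM3 (TL2937+ETEC minus ETEC).

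Further genes that load and start the helicase were higher with TL2937. Of 25 listed genes of origin licensing and firing, 8 had a probe and 7 were well above background on both the TL2937+ETEC and ETEC arrays. Of these 7, 4 were higher by 1.2-fold or more, against 7.26% of all genes, 0 were lower by as much, against 12.5%, and the median log2 difference was 0.35. That median was 0.16 with normexp background correction and 0.23 with dim probes left out. CDC6, the loader of the MCM ring, lay at 1276 with TL2937 and 1055 with TL2766, against 703 in ETEC cells, and its log2 differences against ETEC were 0.86 and 0.59. Its probe was named by similarity to human CDC6. WDHD1, which ties the helicase to polymerase alpha, differed by 0.55 with TL2937 and 0.33 with TL2766, with its other probe at 0.53 and 0.27. CDC45, a helicase cofactor, differed by 0.35 with TL2937 and by 0.059 with TL2766. MTBP, a factor of origin firing, differed by 0.38 with TL2937 and by -0.085 with TL2766, at a dim signal of 53.3 and 38.6 against 40.9.

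Other genes of this step lay closer to 0. ORC4, a subunit of the origin recognition complex, had log2 differences of 0.062 with TL2937 and 0.10 with TL2766. MCM8, a relative of the helicase subunits with a role in recombination, lay at 0.013 and 0.040, while its 4 probes ranged up to 0.25 with TL2937 and from -0.079 with TL2766. DBF4, the activator of the CDC7 kinase, lay at 0.10 and 0.057, and its probes did not share a sign. ORC6 was well above background with both lactobacilli but not in ETEC cells. Its dim signals of 26.8 with TL2937 and 23.2 with TL2766 were 1.90 and 1.64 times its undetected ETEC value of 14.2, so these folds are uncertain. With TL2766, 2 of the 7 measured genes were higher by 1.2-fold or more, against 8.05% of all genes, and 0 lower by as much, against 8.88%. The median was 0.059, and 0.17 when each gene was given by the median of its probes.

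At the replication fork, 9 of 35 listed genes had a probe and 7 were measured against ETEC. With TL2937, 6 of the 7 were at least 1.2-fold higher, against 7.26% of all genes, 0 were lower by as much and the median was 0.32. Claspin (CLSPN), which signals stalled forks to the checkpoint kinase, lay at 327 with TL2937 and 246 with TL2766, against 202 in ETEC cells, for log2 differences of 0.69 and 0.28. UHRF1 and DNMT1, which copy DNA methylation onto the new strand, differed by 0.41 and 0.32 with TL2937 and by 0.22 and 0.19 with TL2766. All 6 probes of DNMT1 gave positive differences, from 0.24 to 0.33 with TL2937 and from 0.083 to 0.22 with TL2766. POLA2, a subunit of polymerase alpha, differed by 0.33 and 0.32. RFC5, of the complex that loads PCNA, differed by 0.31 and 0.25. The histone chaperone gene ASF1B differed by 0.31 with TL2937 and 0.061 with TL2766. RNASEH2C, a subunit of the enzyme that removes ribonucleotides from DNA, lay at -0.12 and -0.11. POLA1 and TIMELESS were not well above background on any array. With TL2766, 2 of the 7 genes, POLA2 and CLSPN, were at least 1.2-fold higher, against 8.05% of all genes, 0 were lower by as much and the median was 0.22.

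Over the members, the licensing list and the fork list together, 18 genes were measured in each comparison with ETEC. With TL2937, 13 of them were at least 1.2-fold higher, against 7.26% of all genes, and 0 lower by as much. Above 0 lay 17 of the 18, against 1705 of all 4258 genes, with a median of 0.34. With TL2766, 6 were at least 1.2-fold higher, against 8.05%, and 0 lower by as much. Above 0 lay 16 of the 18, against 2107 of 4235 genes, with a median of 0.17. In the direct comparison 19 genes were measured, 5 were at least 1.2-fold higher with TL2937, against 4.29%, 0 lower by as much, and the median was 0.20. MTBP (0.46) and CLSPN (0.41) had the largest differences between the lactobacilli in these lists.

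Few genes of nucleotide supply could be measured, 5 of 22 listed. With TL2937, 0 of the 5 were at least 1.2-fold higher and 1 was lower by as much, against 7.26% and 12.5% of all genes, and the median was 0.044. The lower one was SAMHD1, which breaks down deoxynucleotides and is known as an interferon-induced gene, at -0.28 with TL2937 and 0.13 with TL2766. Its other probe gave -0.12 and 0.17. The count of lower genes with TL2937 was 0 under normexp correction, quantile, cyclic loess and spike-in scaling, and the mean or median of all probes. Over the settings, the count of higher genes was 0 to 1. RRM2B, the p53-regulated relative of RRM2, lay at -0.14 and -0.18. MTHFD1, an enzyme of folate metabolism, lay at 0.23 and 0.14, and the nucleoside diphosphate kinase NME1 at 0.12 and 0.17. With TL2766, 0 of the 5 reached 1.2-fold in either direction, against 8.05% higher and 8.88% lower of all genes. Above 0 lay 4, against 2107 of 4235 genes, and the median was 0.13.

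Regulators of the G1/S transition had a median of -0.079 with TL2937 and of -0.070 with TL2766 over 13 measured genes. With TL2937, 1 lay above and 1 below by 1.2-fold or more, a share near the 7.26% and 12.5% of all genes. The higher one was E2F8, an E2F factor that represses transcription, at 0.42 with TL2937 and 0.20 with TL2766. The lower one was the cyclin-dependent kinase inhibitor CDKN1B, at -0.27 and -0.10. The cyclin genes CCND2 and CCND3 lay at -0.26 and -0.23 with TL2937 and at -0.22 and -0.17 with TL2766. The pocket protein gene RBL1 lay at 0.22 with TL2937 and -0.051 with TL2766. With TL2766, 0 of the 13 reached 1.2-fold in either direction, against 8.05% higher and 8.88% lower of all genes.

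Mitotic genes, which act after replication, lay near 0 with TL2937 and below 0 with TL2766. With TL2937 their median was 0.067 over 13 genes, with 10 above 0, against 1705 of all 4258 genes. At least 1.2-fold higher was 1, near the 7.26% of all genes, and 0 were lower by as much. The higher one was CDC25C, a phosphatase that activates CDK1, at 0.29, although its other probe gave -0.12. The kinase gene AURKB lay at -0.26, with a further probe at 0.20. With TL2766 the median was -0.21, with 3 of the 13 lower by 1.2-fold or more, against 8.88% of all genes, and 0 higher by as much. Below 0 lay 12 of the 13, against 2128 of 4235 genes. Over the replication genes above, 16 of 18 had lain above 0 in the same comparison, and the difference between the lists was not tested. Between the lactobacilli the mitotic median was 0.29, with 7 at least 1.2-fold higher with TL2937, against 4.29% of all genes, and 0 lower by as much. PLK1 (0.46), CENPF (0.45) and KIF20A (0.45) led, KIF20A at dim signals of 35.5 with TL2937 and 26.1 with TL2766. The mitotic list was chosen with earlier results of these data known, so its counts against all genes are no independent support.

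Targets of p53, a regulator that halts the cell cycle, lay on the lower side with both lactobacilli. All 8 measured genes had differences below 0 in both comparisons (7 of 8 with TL2937 under quantile or spike-in scaling, and with TL2766 under the mean or median of all probes), with medians of -0.27 with TL2937 and -0.16 with TL2766. Of all genes, 2553 of 4258 lay below 0 with TL2937 and 2128 of 4235 with TL2766. At least 1.2-fold lower were 4 with TL2937, against 12.5% of all genes, and 2 with TL2766, against 8.88%, and 0 were higher by as much. The count with TL2766 was 1 to 3 over the other settings, and 1 in the authors' table. The cyclin G gene CCNG1 lay at -0.38 and -0.39, and the death receptor gene FAS at -0.35 and -0.26 (its other probe at 0.098 and 0.56). The antiproliferative gene BTG2 lay at -0.34 with TL2937 and -0.15 with TL2766, and the pore-forming gene BAX at -0.33 and -0.25. CDKN1A, the p53-induced inhibitor of cyclin-dependent kinases that also binds PCNA, lay at -0.22 with TL2937 and -0.10 with TL2766. RRM2B and CDKN1A each stand in a second list. The 8 measured reference genes had medians of -0.065 with TL2937 and 0.017 with TL2766, and 0 of them reached 1.2-fold. Of all genes, 7.26% were higher and 12.5% lower by as much with TL2937, and 8.05% and 8.88% with TL2766.

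**Figure D3:**
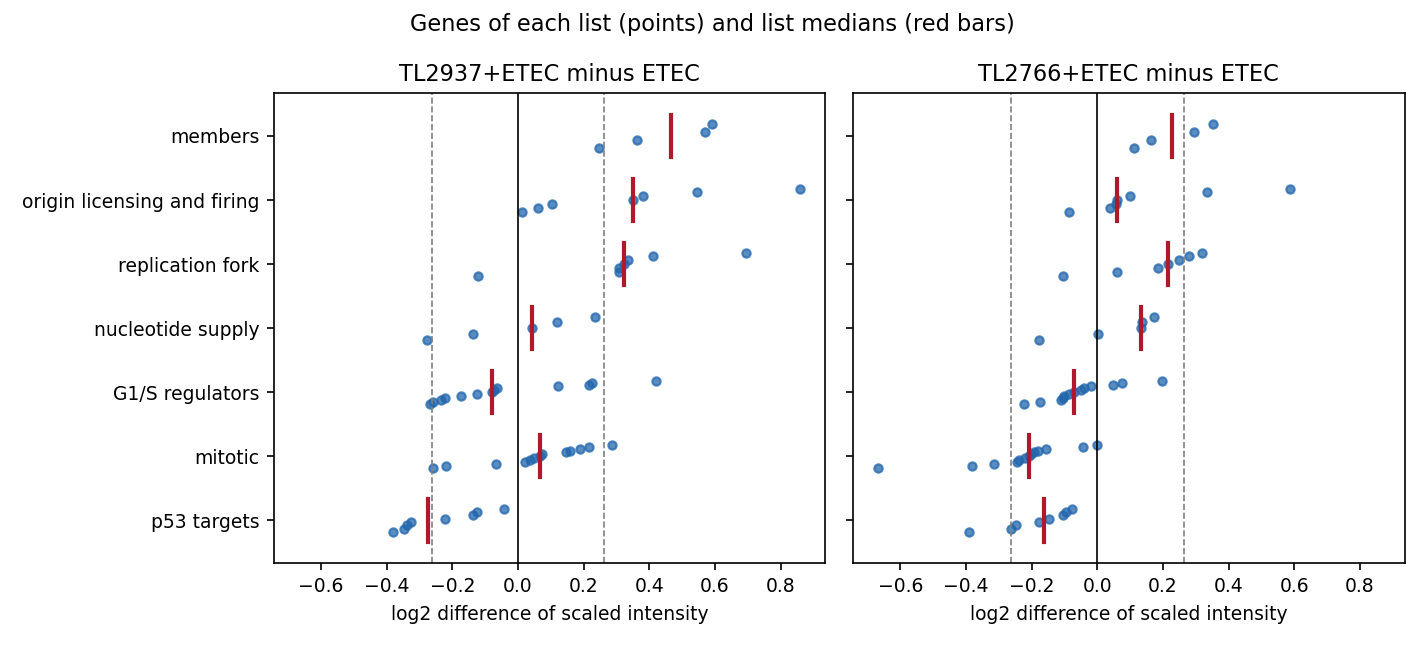
Log2 difference of scaled intensity for each measured gene (points) of 7 lists, TL2937+ETEC minus ETEC on the left and TL2766+ETEC minus ETEC on the right, with list medians as red bars and 1.2-fold as dashed lines. The list medians of the members, licensing and fork genes lie above 0 in both panels, while the mitotic median is 0.067 on the left and -0.21 on the right.

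Among all genes well above background on the 3 arrays and outside the list, those nearest to the members' median pattern were ARHGAP11A, CHEK1 and GK. Nearness was the Euclidean distance between pairs of log2 differences against ETEC, over 3 arrays. ARHGAP11A lay at 0.46 with TL2937 and 0.22 with TL2766, CHEK1 at 0.49 and 0.25, and GK at 0.47 and 0.19, against member medians of 0.47 and 0.23.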

How the data were processed

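Total RNA of 3 PIE cultures (TL2937+ETEC, TL2766+ETEC and ETEC, 1 array each, on 1 slide) was labelled with Cy3, 200 ng per sample per the labels' protocols. Per the file headers, the processed intensity was made by Agilent Feature Extraction 10.7.3.1, with spatial and multiplicative detrending of each array. The headers name no step that scales arrays to each other. The authors' deposited value table held the same intensity, rounded (largest difference 0.496%).

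Each array's 75th percentile (503, 481 and 459) was removed from its processed intensity in log2 units. Outlier spots (9, 4 and 8) were left out, and no gene spot was saturated. Scaled intensity is 2 to the power of this value, times 481. Of 43603 probes, 12056 had a symbol, from the array, from RefSeq accessions or synonyms (Sscrofa11.1), or, for 10 probes, from a description naming a mammalian protein, while 61 probes whose name and accession differed were left out. These descriptions were matched after the array annotation had been read. A gene was given by its brightest probe and counted where well above background on both arrays. For a gene above background on only 1 array, the fold was taken against the higher of its dim value and the lowest detected signal. All members are named, with the 3 genes of each list and comparison that differed most, the 3 nearest in pattern, and others chosen after their values were seen. The members and lists were chosen with earlier results of these data known, so their counts beside those of all genes are descriptive only. With 1 array per group nothing was tested, and the number of arrays limits the precision. The steps from probes to gene differences were tested on simulated data. The scaling and the naming of probes were not part of that test. Software used was R 4.3.3 with limma 3.58.1, and Python 3.11.15 with numpy 2.4.6, matplotlib 3.10.9 and pandas 2.3.3.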

Additional observations from a re-analysis of the deposited data

How the results depend on the processing

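The 4 measured genes kept their direction in the 3 comparisons under spike-in, median, quantile and cyclic loess scaling and normexp background correction (offset 50). Other probe rules, no background filter and outlier spots kept could not move them, as each had 1 probe, well above background, and the authors' table holds the same intensities rounded. The member median ranged from 0.36 to 0.54 for TL2937+ETEC minus ETEC, from 0.15 to 0.27 for TL2766+ETEC minus ETEC and from 0.18 to 0.23 between the lactobacilli. MCM3 lay at 0.46 with TL2937 and 0.20 with TL2766 against ETEC with the normexp correction. With TL2766 the members at least 1.2-fold higher numbered 1 in place of 2 with that correction. They also numbered 1 with both arrays above the median of the detected probes, where MCM3 was too dim to enter against ETEC. With TL2937 against ETEC they numbered 3, but 4 with spike-in scaling and 2 of the 3 left under that filter. At 1.5-fold they numbered 1, 0 and 0 in the 3 comparisons, and at 2-fold 0, 0 and 0. Over the members, licensing and fork lists together, 9 to 14 genes were at least 1.2-fold higher with TL2937 and 4 to 7 with TL2766. The nucleotide supply median with TL2937 (-0.025 to 0.11), the G1/S median between the lactobacilli (-0.035 to 0.015) and the reference gene medians changed sign. Of all genes past 1.2-fold with TL2937 against ETEC, 36.7% were higher, and 55.3% with spike-in scaling. With TL2766 these were 47.6% and 62.0%. Between the lactobacilli they were 37.0%, against 20.6% under the filter at the median of detected probes and 21.4% under normexp. The causes were not tested. No paired analysis was possible because each group had 1 array, which also left no slide block to fit. Signal over background limits ORC6, which lay near the lowest detected signals. It also limits MTBP and KIF20A, which were dim but well above background on all arrays.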
